A study of Mus musculus with 2 samples.

Results

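Cd209a-positive dendritic cells of the liver were taken from an scRNA-seq library of sorted CD45.2+CD11b+ liver cells of 4 mice. Members were selected on their own measured counts: a cell needed a count of Cd209a, counts of at least 3 of the 6 further markers Klrd1, Mgl2, Clec10a, H2-Oa, Flt3 and Tnfsf9, counts of at most 2 of the 5 markers of mature dendritic cells Ccr7, Fscn1, Cacnb3, Apol7c and Nudt17, and at most 25% mitochondrial counts. This gave 1315 cells out of 15384.

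Each group was 1 male mouse that was 6 to 12 weeks old when the diet began. All 4 mice carried Egr2 flanked by loxP sites (Egr2fl/fl), and 2 of them also carried Cre in 1 copy of the Lyz2 locus (Lyz2Cre/+.Egr2fl/fl), which deletes Egr2 in myeloid cells that express Lyz2. One mouse of each genotype was fed a normal diet (ND), and 1 of each was fed CDA-HFD, a high-fat diet that lacks choline and supplies protein as defined L-amino acids, a model of metabolic dysfunction-associated steatohepatitis, for 7 weeks. Cells bearing CD90.2, B220, NK1.1 or SiglecF had been gated out, each mouse carried its own hashtag, and per the labels 3000 cells per ND-fed and 9000 per CDA-HFD-fed animal were loaded. Where 4 values are given in a row, they are in the order ND-fed Egr2fl/fl, ND-fed Lyz2Cre/+.Egr2fl/fl, CDA-HFD-fed Egr2fl/fl and CDA-HFD-fed Lyz2Cre/+.Egr2fl/fl.

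Dendritic cells take up antigen, load its peptides onto MHC molecules and present them to T cells. Conventional dendritic cells fall into type 1 cells, which carry XCR1 and depend on IRF8, and type 2 cells (cDC2), which carry SIRPα and CD11b and depend on IRF4. CD209a is a C-type lectin that binds glycans of microbes, and it is also found on dendritic cells that arise from monocytes. Antigen-bearing dendritic cells mature, gain CCR7 and migrate to lymph nodes.

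Depth was close between the mice. The members had median counts of 18145, 16733, 16197.5 and 16302 per cell, and their summed counts were 2083214, 1984824, 9624861 and 9550378. The ND-fed mice therefore carry about the same depth per cell but far fewer cells, and values from them are less precise. No cell barcode was shared between mice. As each group is a single mouse, no test was made, and whether a difference is larger than the spread between mice cannot be said. All intervals are 95% intervals that cover counting error only. Those of ratios treat each count as a separate draw and leave out the spread between cells. In the ND-fed Egr2fl/fl mouse, 77 Egr2 counts lay in 11.2% of the members, so ratio intervals can be too narrow.

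The label was checked against genes that the selection did not use. Cd74, the invariant chain of MHC class II, had a level of 22986 CPM (counts scaled to a total of 1000000) over the members of all mice, and Itgax, which encodes CD11c, had a count in 79.8% of them. Zbtb46, a transcription factor of conventional dendritic cells, had a count in 24.6% of the members and Irf4 in 24.9%. In neutrophils the shares were 0.428% and 0.321%, at far lower median counts of 3931, 4188, 4279.5 and 4249 per cell. Zbtb46 stood at 31.5 CPM in the members and at 0.799 CPM in Kupffer cells, so these genes did not go against the label. The summed level of 16 listed cDC2 markers, which include the rule genes Mgl2 and Clec10a, was 1516 CPM in the members, 1538 CPM in Ly6Chi monocytes and 677 CPM in Xcr1-positive cells, so that list did not set the members apart from monocytes.

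Other genes set the cells apart from the neighbouring dendritic cells. Irf8 had 59.5 CPM in the members and 1628 CPM in 148 Xcr1-positive dendritic cells. Irf4 showed the opposite order, with 35.6 CPM in the members and 1.78 CPM in Xcr1-positive cells. Ccr2, the receptor that draws cells out of the blood toward CCL2, had a count in 84.6% of the members and stood at 425 CPM, against 42.5 CPM in 233 Ccr7-positive mature dendritic cells. The type 2 markers Esam and Clec4a4 were scarce, with 0.602 and 7.53 CPM in the members. Ccr2 was thus shared with Xcr1-positive cells (357 CPM), while Irf4 and Irf8 were not.

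Monocyte genes were low but not absent. Ly6c2 stood at 55.5 CPM in the members and at 1898 CPM in 2228 Ly6Chi monocytes, and Sirpa, shared by monocytes, macrophages and cDC2, at 125 CPM against 221 CPM. All Ly6Chi monocytes compared had a Ly6c2 count and none a Cd209a count. The Ly6c2 difference thus follows in part from how they were chosen. Csf1r, the receptor of the macrophage growth factor, had 296 CPM in the members, a count in 78.1% of them, and 853 CPM in Ly6Chi monocytes. Cd209d, a second lectin of the CD209 family, had 17.7 CPM in the members and at most 0.444 CPM in each of the 5 classes compared.

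**Figure D1:**
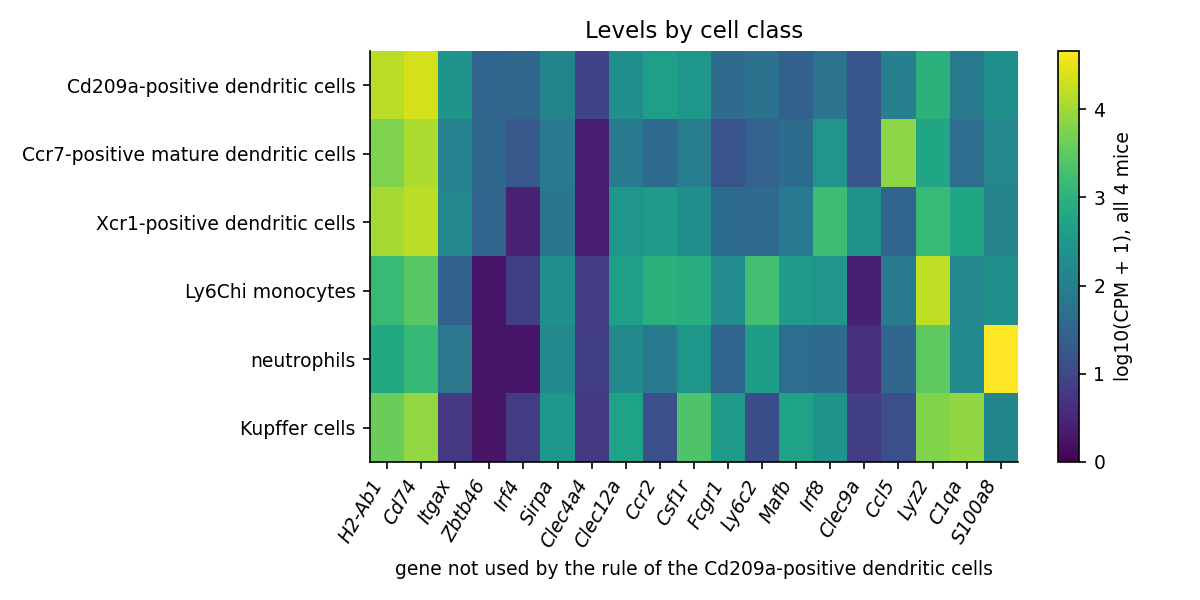
Levels of genes (columns) in 6 cell classes (rows), each over the cells of all 4 mice, as log10 of CPM plus 1 on the colour scale. The Cd209a-positive dendritic cells share high Cd74 with the other dendritic cells, and differ from Xcr1-positive cells in Irf8 (59.5 against 1628 CPM) and from Ly6Chi monocytes in Ly6c2 (55.5 against 1898 CPM). All Ly6Chi monocytes compared had a Ly6c2 count, so that difference follows in part from how they were chosen.

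Markers of the other cells in the gate were present at low levels. The summed level of 16 macrophage markers was 1636, 2851, 1671 and 2288 CPM, against 54798 CPM in 1547 Kupffer cells. The 16 neutrophil markers summed to 131, 293, 542 and 597 CPM, against 148453 CPM in 934 neutrophils, and 2 of them were at 0 in the members. The 12 markers of Ly6Chi monocytes summed to 2460, 1910, 1635 and 1947 CPM, the 15 Kupffer cell markers to 843, 1262, 864 and 909 CPM, and the 5 erythroid genes to 0. Macrophage markers were thus highest in the ND-fed Lyz2Cre/+.Egr2fl/fl mouse, and neutrophil markers were higher in both CDA-HFD-fed mice. The 22 markers of mature dendritic cells summed to 980, 837, 1885 and 1880 CPM, against 23213 CPM in Ccr7-positive cells, and were thus also higher in both CDA-HFD-fed mice. This list holds Ccl22, Cd83 and Relb, described below, and its part in their differences was not tested. The 18 markers of T and NK cells summed to 361, 314, 192 and 174 CPM, and were lower in both CDA-HFD-fed mice.

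The limit of 3 further markers fell inside a gradient. The 335 cells with a Cd209a count and exactly 2 further markers had 26.7 CPM of Zbtb46, 227 CPM of Itgax and 281 CPM of Ly6c2. The 473 cells with exactly 3 had 28.6 CPM of Zbtb46, 244 CPM of Itgax and 87.6 CPM of Ly6c2. Of 2230 cells with a Cd209a count, 908 had fewer than 3 further markers and 7 were removed as mature. The rule markers had a count in 95.1% (Klrd1), 89.4% (H2-Oa), 67.0% (Clec10a), 58.9% (Flt3), 44.2% (Tnfsf9) and 36.9% (Mgl2) of the members. Besides, 12 members also met the rule for Xcr1-positive cells.

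The share of the cells was compared first between diets. In Egr2fl/fl mice, members were 6.21% of all cells on ND (exact Clopper-Pearson interval 5.12 to 7.46; 107 of 1723) and 9.38% on CDA-HFD (8.65 to 10.2; 552 of 5885). In the Lyz2Cre/+.Egr2fl/fl mice they made up 6.73% on ND (5.55 to 8.07; 107 of 1590) and 8.87% on CDA-HFD (8.18 to 9.61; 549 of 6186). The difference between diets was 3.17 percentage points (Newcombe interval 1.72 to 4.51) in Egr2fl/fl and 2.15 points (0.631 to 3.54) in Lyz2Cre/+.Egr2fl/fl mice. In the Lyz2Cre/+.Egr2fl/fl mice the interval reached 0 without Tnfsf9 in the rule (1.46 points, -0.0288 to 2.83) and with a Cd209a count of at least 5 (1.18 points, -0.227 to 2.46), whereas in Egr2fl/fl mice the differences were 2.52 (1.11 to 3.82) and 2.32 points (0.987 to 3.55).

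This direction depended on the Kupffer cells in the denominator. Cells with a count of Clec4f, a lectin of Kupffer cells, were 45.6% and 54.0% of the cells of the ND-fed mice but 0.680% and 1.08% of those of the CDA-HFD-fed mice. Among cells without a Clec4f count, members were 11.2% (9.25 to 13.4; 105 of 938), 14.3% (11.9 to 17.1; 105 of 732), 9.41% (8.67 to 10.2; 550 of 5845) and 8.94% (8.24 to 9.68; 547 of 6119). The difference between diets was then -1.78 points (-4.10 to 0.312) in Egr2fl/fl and -5.40 points (-8.24 to -2.84) in Lyz2Cre/+.Egr2fl/fl mice. A share does not say whether the number of these cells in the liver differed, which was not measured.

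The shares were then compared between genotypes. The Lyz2Cre/+.Egr2fl/fl mouse exceeded the Egr2fl/fl mouse by 0.519 points on ND (-1.20 to 2.25) and was below it by 0.505 points on CDA-HFD (difference -0.505, -1.55 to 0.534). Both intervals include 0, which does not show that the shares were alike. With at least 2 further markers in place of 3, the differences were -0.442 points on ND (-2.41 to 1.54) and -1.21 points on CDA-HFD (-2.35 to -0.0684), so that the direction on ND turned and the interval on CDA-HFD no longer included 0. Among cells without a Clec4f count the ND difference was 3.15 points (-0.146 to 6.52).

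**Figure D2:**
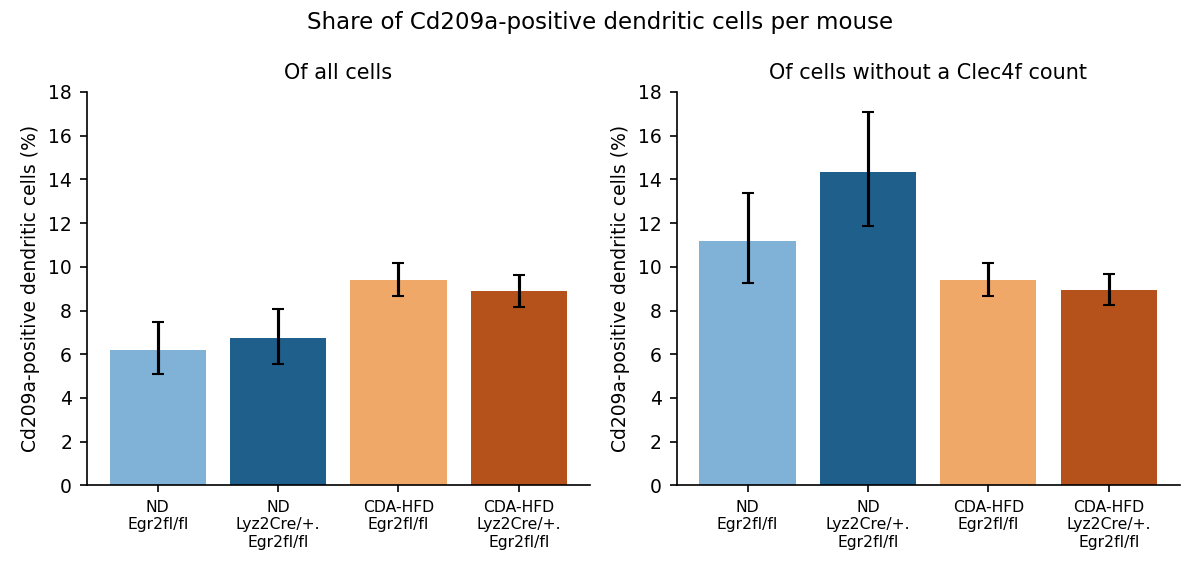
Share of Cd209a-positive dendritic cells (%) in each of the 4 mice, among all cells and among cells without a Clec4f count, with exact 95% intervals that cover counting error only. The CDA-HFD-fed mice are higher among all cells (9.38% and 8.87% against 6.21% and 6.73%) and lower among cells without Clec4f (9.41% and 8.94% against 11.2% and 14.3%).

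Egr2, the deleted gene, is a zinc finger transcription factor that is switched on within minutes of receptor stimulation. It stood at 37.0, 31.7, 65.5 and 53.4 CPM in the Cd209a-positive cells. The ratio of Lyz2Cre/+.Egr2fl/fl to Egr2fl/fl was 0.859 on ND (0.606 to 1.21) and 0.816 on CDA-HFD (0.725 to 0.918). The level in the CDA-HFD-fed Lyz2Cre/+.Egr2fl/fl mouse was thus lower by less than the 1.5-fold used below, although the ratio was 0.656 when cells were chosen by at least 2 of Clec10a, H2-Oa and Flt3 instead. On CDA-HFD the same ratio was 0.366 (0.308 to 0.433) in Ly6Chi monocytes and 0.0431 (0.00870 to 0.131) in neutrophils, and 0.708 (0.469 to 1.08) in Xcr1-positive and 0.671 (0.246 to 1.69) in Ccr7-positive dendritic cells. On ND it was 0.179 (0.100 to 0.302) in Kupffer cells, 0.355 (0.123 to 0.844) in Xcr1-positive cells and 0.437 (0.147 to 1.09) in Ly6Chi monocytes. In Xcr1-positive cells on ND these were 39 counts in 17.8% of 45 cells and 6 counts in 11.8% of 17 cells. In Ccr7-positive cells on ND there were 13 counts of Egr2, all in 4.76% of 21 cells, in the Egr2fl/fl mouse. The other mouse had 0 in 12 such cells, and neutrophils had 2 and 1. These ND values thus rest on very few cells. Which part of Egr2 is deleted, and whether the counted 3′ reads fall in it, is not given in the sources used here.

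Cre came from the Lyz2 locus, and Lyz2, which encodes lysozyme, was itself low in these cells. Lyz2 stood at 1163, 659, 1434 and 626 CPM in the members, lower in both Lyz2Cre/+.Egr2fl/fl mice, with ratios of 0.567 on ND (0.530 to 0.607) and 0.436 on CDA-HFD (0.423 to 0.450). Ly6Chi monocytes had ratios of 0.615 and 0.501 for the same gene. Cre takes the place of 1 of the 2 copies of Lyz2, so this gene reports the allele as well as the cells. Low values of Lyz2 had also been set to 0 in the deposited counts.

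Egr2 was higher on CDA-HFD in both genotypes, by 1.77-fold (1.40 to 2.27) in Egr2fl/fl and 1.68-fold (1.29 to 2.22) in Lyz2Cre/+.Egr2fl/fl mice. When every member was thinned to 5000 counts, 6.54%, 9.43%, 16.1% and 11.3% of the members had an Egr2 count, and 11.2%, 13.1%, 26.1% and 18.6% had one without thinning. With at least 4 further markers required, both diet ratios were 1.21. Egr1, a related early gene, had 167, 299, 377 and 376 CPM, and Egr3 had 10.1, 38.3, 54.2 and 55.8 CPM. The ND-fed Egr2fl/fl mouse was thus the lowest of the 4 for Egr1 and Egr3.

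Gene levels were next compared between diets. A gene was tested where it had at least 100 counts over both mice and a count in at least 20% of the members of 1 of them, and it was called where its CPM differed at least 1.5-fold. A gene could thus pass through only the mouse in which it was higher. The counts of called genes in a list are therefore partly set by the filter and are a description. In Egr2fl/fl mice, 376 of 4893 genes were called higher on CDA-HFD (7.68%) and 427 lower (8.73%). In Lyz2Cre/+.Egr2fl/fl mice, 290 of 4875 genes were higher (5.95%) and 424 lower (8.70%). The split depended on the scaling: with TMM factors 451 genes were higher and 338 lower in Egr2fl/fl mice, and 383 higher and 293 lower in Lyz2Cre/+.Egr2fl/fl mice. Both pairs of mice called 150 of 4532 genes higher (3.31%), 104 lower (2.29%) and 11 in opposite directions (0.243%), and the pairs share no mouse.

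Immediate early genes, which cells switch on rapidly after stimulation without making new protein first, were higher on CDA-HFD. Of 34 listed, 31 passed the filter in both pairs, and 21 of these were higher and none lower in both pairs, against 3.31% and 2.29% of all genes tested. Some passed only through the CDA-HFD-fed mice, as Nr4a2 did, with a count in 8.41%, 10.3%, 36.8% and 29.1% of the members. How many of the 21 passed in this way was not counted. The median log2 ratio of the list was 1.61 in Egr2fl/fl and 1.44 in Lyz2Cre/+.Egr2fl/fl mice, beside -0.04 and -0.05 over all genes tested.

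Among transcription factors of the AP-1 family, Fosb had 45.6, 46.4, 348 and 326 CPM. Both CDA-HFD-fed mice were above both ND-fed mice, by 7.63-fold (6.22 to 9.46) and 7.03-fold (5.72 to 8.75). Atf3, a stress-induced repressor of the same family, had 150, 151, 1142 and 1150 CPM, 7.60-fold and 7.63-fold higher. The 2 genotypes were nearly equal on each diet for both genes. Fos and Junb were also higher in both pairs, with ratios of 3.06 and 3.33 for Fos and of 2.48 and 1.97 for Junb. The orphan nuclear receptor Nr4a2 had 8.16, 11.6, 111 and 76.6 CPM, 13.7-fold (8.49 to 23.5) and 6.61-fold (4.37 to 10.5) higher.

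No list of the NF-κB pathway was made, and 4 of its genes are given from the lists of immediate early genes and dendritic cell transcription factors. Nfkbia, which encodes the inhibitor IκBα and is itself an NF-κB target, had 390, 381, 1190 and 1250 CPM (ratios 3.05 and 3.28). Tnfaip3, the ubiquitin-editing inhibitor A20, had 21.1, 22.7, 107 and 98.2 CPM (5.07 and 4.33). Rel, the subunit c-Rel, had 58.6, 53.9, 132 and 117 CPM (2.25 and 2.16). For these 3 genes both CDA-HFD-fed mice lay above both ND-fed mice. Relb, the partner subunit used by mature dendritic cells, had 22.6, 9.57, 34.0 and 34.3 CPM, and its ratios of 1.51 and 3.59 differed mainly through the ND-fed Lyz2Cre/+.Egr2fl/fl mouse.

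**Figure D3:**
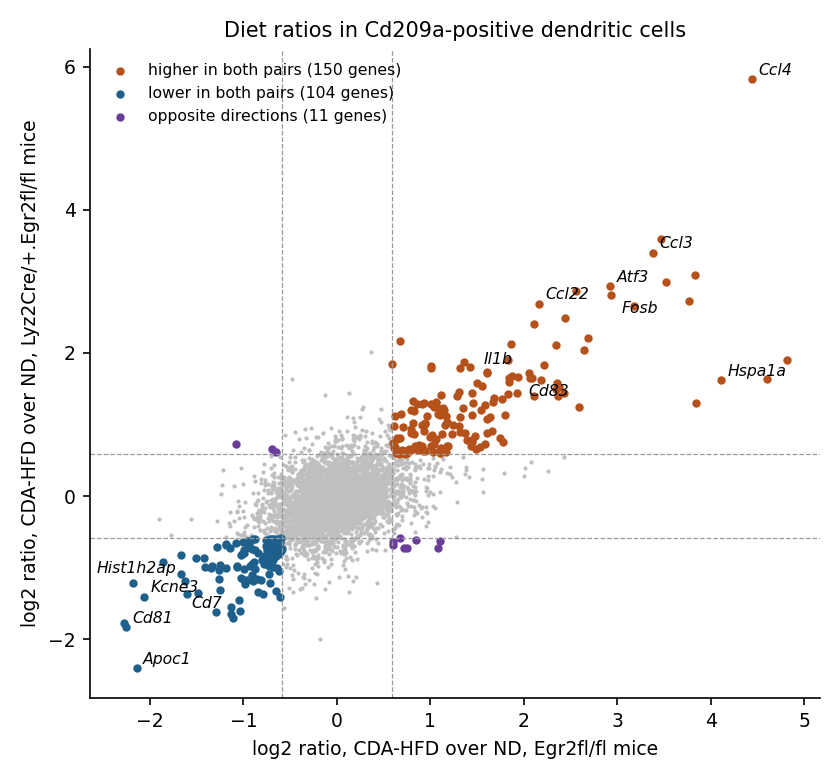
Ratio of CDA-HFD to ND in Cd209a-positive dendritic cells for each gene tested in both genotypes, as log2, in Egr2fl/fl mice (x axis) and Lyz2Cre/+.Egr2fl/fl mice (y axis), with dashed lines at a 1.5-fold difference. The 150 genes higher in both pairs include Ccl4 (21.7-fold and 56.9-fold), Ccl3, Atf3 and Fosb, and the 104 lower in both include Apoc1, Cd81 and Kcne3.

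Chemokine genes were higher as well. Of 20 listed, 6 passed the filter in both pairs and 5 of these were higher in both, against 3.31% of all genes tested. Ccl22 passed only through the CDA-HFD-fed mice. So did Ccl4 in the Lyz2Cre/+.Egr2fl/fl pair, with a count in 18.7% of members on ND and 50.1% on CDA-HFD. Ccl4, a chemokine that attracts monocytes and T cells, had 37.0, 14.6, 803 and 832 CPM, ratios of 21.7 (17.4 to 27.6) and 56.9 (39.6 to 85.1). Ccl3, a ligand of CCR1, had 43.7, 44.8, 455 and 474 CPM (10.4 and 10.6). Both genes were low in each ND-fed mouse and nearly equal in the CDA-HFD-fed mice.

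Ccl22, a ligand of CCR4 made mainly by dendritic cells, had 85.4, 71.0, 383 and 459 CPM (4.48 and 6.45). It had a count in 4.67%, 8.41%, 31.0% and 30.6% of the members, so that the higher level went with more cells carrying a count. Ccr7-positive mature dendritic cells had far more Ccl22 (2775, 650, 2544 and 2064 CPM), Xcr1-positive cells had 32.4, 0, 499.99 and 51.7 CPM, and Ly6Chi monocytes had between 3.51 and 5.33 CPM in all 4 mice. Ccl9 had ratios of 1.87 and 2.00, and Cxcl16, a ligand of CXCR6, 2.05 and 1.65. Ccl17, the other ligand of CCR4, did not pass the filter, and had 92.2, 92.2, 96.3 and 177 CPM.

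Among cytokines, Il1b had 685, 807, 2518 and 2569 CPM (3.68 and 3.19). Tnf had 8.16, 8.57, 73.7 and 54.0 CPM (9.03 and 6.31). Both were higher in each CDA-HFD-fed mouse. Ebi3, a subunit of interleukin 27 and interleukin 35, went the other way, with 113, 114, 63.0 and 66.0 CPM (0.558 and 0.577). These 3 were the genes called in both pairs among 4 of 26 listed cytokines that passed the filter, 2 higher against 3.31% of all genes tested and 1 lower against 2.29%. Tnf had a count in 10.3%, 6.54%, 27.5% and 21.3% of the members, and so passed the filter only through the CDA-HFD-fed mice.

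Some of the diet differences were also seen at equal depth. With members thinned to 5000 counts, 82 of the 150 genes higher in both pairs and 24 of the 104 lower were still called. The filter was applied again to the thinned counts, so a gene could also be lost because it no longer passed. After this thinning, Ccl4 had a count in 9.35%, 10.4%, 36.9% and 36.2% of the members, and Atf3 in 28.0%, 34.0%, 73.2% and 70.7%. In single members the summed level of the immediate early genes had medians of 4374, 5014, 11675 and 11733 CPM, with 10th to 90th percentiles of 2294 to 9156, 2693 to 10087, 3891 to 22793 and 3338 to 24413 CPM. The medians of the CDA-HFD-fed mice lay above the 90th percentiles of both ND-fed mice, while their 10th percentiles lay below the medians of both ND-fed mice. Across the members of a mouse, the immediate early level and the summed level of Ccl3, Ccl4 and Tnf had Spearman correlations of 0.13, 0.11, 0.20 and 0.37, from counts of the same cells and given as a description. With Tnfsf9, a gene of the rule, the correlations were 0.40, 0.10, 0.53 and 0.56. Choosing members partly by Tnfsf9 can therefore favour cells high in immediate early genes.

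**Figure D4:**
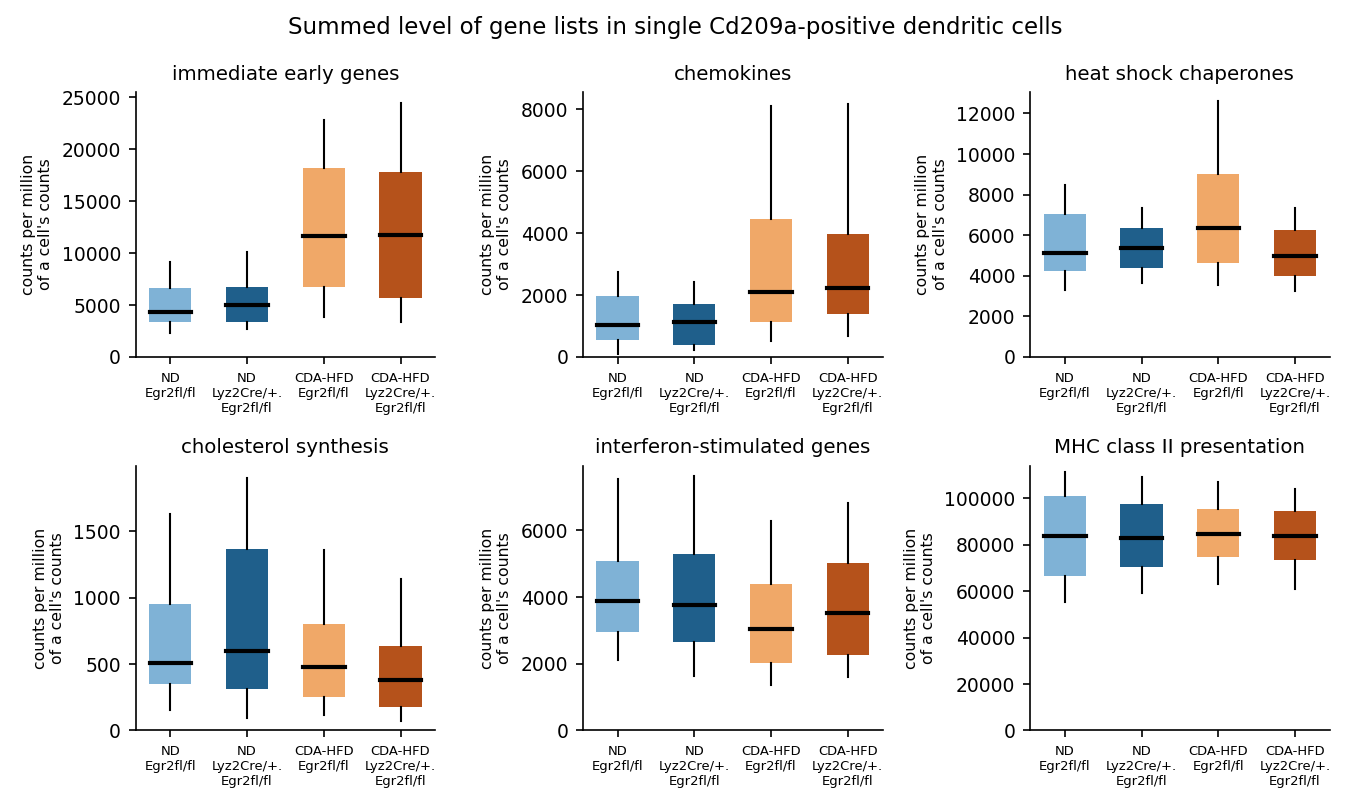
Summed level of gene lists in single Cd209a-positive dendritic cells, in CPM of a cell's counts, for each of the 4 mice, with the line at the median, the box over the quartiles and the whiskers from the 10th to the 90th percentile. The immediate early genes have medians of 4374 and 5014 CPM in the ND-fed and 11675 and 11733 CPM in the CDA-HFD-fed mice, and MHC class II presentation has medians between 82973 and 84710 CPM.

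A higher level of immediate early genes on CDA-HFD was not particular to these cells. Their summed level was 5202, 5852, 12527 and 12593 CPM in the members, 4813, 4948, 12737 and 11307 CPM in Ly6Chi monocytes and 13981, 12899, 25194 and 19585 CPM in neutrophils. It was higher in each CDA-HFD-fed mouse also in Ccr7-positive cells, Xcr1-positive cells and Kupffer cells. Such genes can also be switched on while tissue is digested and sorted, and handling cannot be told apart from diet here, with 1 mouse per group. Ccl3 and Ccl4 were likewise higher in both CDA-HFD-fed mice in each of the 5 other classes, with 8.53, 24.99, 145 and 60.2 CPM of Ccl3 in Ccr7-positive and 17.3, 39.9, 89.5 and 143 CPM in Xcr1-positive cells. Tnf was higher in both CDA-HFD-fed mice also in neutrophils (28.4, 46.3, 127 and 170 CPM), Kupffer cells (7.90, 7.30, 27.4 and 36.6 CPM) and Ccr7-positive cells (0, 6.25, 35.2 and 13.5 CPM), whereas in Ly6Chi monocytes it was between 12.1 and 14.7 CPM in all 4 mice. In Xcr1-positive cells Tnf had 30.1, 6.94, 8.35 and 24.99 CPM.

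Molecules that face T cells were examined next. Of 21 costimulatory and coinhibitory genes, 12 passed in both pairs, and 2 were higher in both, against 3.31% of all genes tested. Cd83, a marker of activated dendritic cells that keeps MHC class II at the surface, had 151, 140, 576 and 442 CPM (3.82 and 3.15), and had a count in 26.2%, 23.6%, 63.0% and 55.2% of the thinned members. It also had one in 11.3%, 3.17%, 31.2% and 31.0% of thinned Ly6Chi monocytes, and in 25%, 3.85%, 7.29% and 11% of thinned neutrophils. Pvr, the receptor CD155, had 13.4, 12.6, 45.8 and 32.4 CPM (3.41 and 2.57). Cd86 had 36.0, 27.2, 52.6 and 54.2 CPM (1.46 and 1.99), and was past 1.5-fold only in the Lyz2Cre/+.Egr2fl/fl pair, a difference between pairs that was not tested. Cd40 and Icosl had ratios of 1.03 and 1.80 and of 1.38 and 1.79. The ligand Tnfsf9 (4-1BBL) had 32.2, 27.2, 356 and 328 CPM, but it was used to choose the members and this is no finding. Without Tnfsf9 in the rule, 1207 cells remained (103, 105, 500 and 499), so most members that Tnfsf9 let in came from the CDA-HFD-fed mice. Of 223 ratios of named genes past 1.5-fold, 219 stayed past it without Tnfsf9, and 12 moved beyond their intervals.

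Antigen presentation through MHC class II was nearly level. Of 22 listed genes, 18 passed in both pairs and none was called in both, a count near the 3.31% higher and 2.29% lower over all genes tested. Their summed level was 80278, 80246, 83670 and 81752 CPM. H2-Ab1 had ratios of 1.08 and 1.01 and Cd74 of 1.04 and 0.974. Ciita, the master regulator of MHC class II transcription, had 271, 229, 195 and 167 CPM (0.719 and 0.730), lower in both CDA-HFD-fed mice but short of 1.5-fold. Of 20 MHC class I genes, 19 passed and none was called in both pairs, which is likewise near those shares. The protease gene Ctsd was past 1.5-fold in the Egr2fl/fl pair (1.56) and had 1.41 in the other, and with at least 4 further markers required its ratio in the Egr2fl/fl pair was 0.875.

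Some receptors that sense microbes or guide migration were higher on CDA-HFD. Of 26 pattern recognition receptors in the matrix, 11 passed in both pairs, and Tlr2 (25.9, 24.7, 55.7 and 57.3 CPM) and Cd14 (40.3, 38.8, 147 and 170 CPM) were higher in both, 2 of 11 against 3.31% of all genes tested. Both genes encode receptors for bacterial lipids and were about equal between genotypes on each diet. Cxcr4, which holds cells in tissue through CXCL12, had 49.9, 82.1, 212 and 257 CPM (4.25 and 3.13). Clec7a, the β-glucan receptor Dectin-1, had ratios of 1.90 and 1.55. Ccr2 had 370, 288, 420 and 472 CPM and was called only in the Lyz2Cre/+.Egr2fl/fl pair (1.14 and 1.64), a difference that was not tested.

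Transcription factors of dendritic cells divided. Of 21 that passed in both pairs, Klf4, Rel, Relb and Id3 were higher in both, against 3.31% of all genes tested, and Batf3 was lower, against 2.29%. Klf4, which takes part in the development of a subset of cDC2, had 69.1, 107, 211 and 224 CPM (3.05 and 2.10). Batf3, needed by type 1 cells, had 141, 106, 63.6 and 64.1 CPM (0.452 and 0.603). Irf4 had ratios of 0.932 and 1.30, and Zbtb46 of 0.828 and 0.761, neither past 1.5-fold.

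Genes lower on CDA-HFD included interferon-stimulated genes and enzymes of cholesterol synthesis. Of 46 interferon-stimulated genes, 22 passed in both pairs, and 4 of these, with Stat2, Ifi47 and Irgm1 among them, were lower and none higher, against 2.29% and 3.31% of all genes tested. Stat2, a transcription factor that carries type I interferon signals to the nucleus, had 56.2, 66.5, 34.3 and 36.1 CPM (0.610 and 0.543). Ifi47, a GTPase induced by interferon gamma, had 81.6, 73.1, 32.2 and 36.5 CPM (0.395 and 0.5002). The list median was -0.36 and -0.29 on the log2 scale. Of 22 cholesterol genes, 13 passed and 3, with Idi1 and Sc5d among them, were lower in both pairs, against 2.29%. In Lyz2Cre/+.Egr2fl/fl mice 12 of 14 cholesterol genes that passed were lower, against 8.70% of all genes, with a list median of -1.06. In Egr2fl/fl mice 3 of 14 were lower, against 8.73%, and 1 was higher, with a median of -0.17. Idi1, the isomerase that forms dimethylallyl diphosphate, had 63.8, 62.0, 40.5 and 24.8 CPM (0.635 and 0.400). Sc5d had a ratio of 1.29 in Egr2fl/fl mice when members were thinned, against 0.649 with all counts.

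Some genes with low ratios were also read without members high in markers of other cells. Apoc1, an apolipoprotein gene, had 90.2, 131, 20.5 and 24.6 CPM in the members (0.227 and 0.189), and 2480, 2452, 493 and 611 CPM in Kupffer cells. In the 1277 members left without those that had more than 10000 CPM of macrophage, Kupffer cell or neutrophil markers, Apoc1 had 29.9, 32.4, 19.6 and 23.7 CPM and ratios of 0.656 and 0.733. Cd81, a tetraspanin, had 55.7, 66.0, 11.6 and 18.5 CPM (0.209 and 0.281), and 0.392 and 0.292 without those members. Adgre1, which encodes F4/80, had ratios of 0.455 and 0.341, and 0.579 and 0.346 without them. Kcne3, a potassium channel subunit, had 48.5, 36.3, 11.6 and 13.7 CPM, with ratios of 0.240 and 0.378 that were 0.241 and 0.383 without them.

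Other genes lower in both pairs were Scimp, an adaptor of MHC class II and Toll-like receptor signalling (109, 77.6, 36.1 and 30.2 CPM), Ltb, which encodes lymphotoxin β (98.4, 84.6, 41.3 and 43.5 CPM), and the proliferation-linked tubulin gene Tubb5 (737, 579, 394 and 346 CPM). Each had its 2 lowest values in the CDA-HFD-fed mice. The summed markers of T and NK cells were lower there as well, and their part in the values of Ltb and Cd7 was not tested. Cd7 had 94.6, 73.6, 39.8 and 29.7 CPM, ratios of 0.421 and 0.404, but with at least 4 further markers required its ratios were 1.08 and 1.64. Tgtp1 and Tgtp2, interferon-induced GTPases lower in both pairs, are near-identical copies whose counts may be exchanged.

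Promoter sequences were read for genes higher on CDA-HFD. The windows hold the 250 bases before the start of each gene in RefSeq (GRCm38.p6), and 115 of the 150 genes higher in both pairs and 80 of the 104 lower in both had a window. Both strands were searched for an NF-κB site of 10 bases, the Egr site GCGTGGGCG, the AP-1 site TGACTCA, the CRE TGACGTCA, the CArG box of 10 bases and the PU.1 site GAGGAAGT. The NF-κB site was in 18.3% of the windows of the genes higher in both pairs, in 12.5% of those lower in both, in 9.04% of the 3331 windows of genes tested and in 7.01% of all 27025. GCGTGGGCG was in 5.22%, 1.25%, 1.02% and 0.540% of the same windows, which is 6 of the 115, and GAGGAAGT in 8.70%, 3.75%, 3.15% and 2.44%. TGACTCA was in 2.61%, 3.75%, 2.70% and 4.43%, TGACGTCA in 2.61%, 0%, 2.73% and 1.62%, and the CArG box in 2.61%, 1.25%, 1.05% and 1.40%, with 3 of the 115 windows of higher genes for each. A match is a description and does not show that a factor binds.

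The windows of Rel and Nfkbia are shown because they hold the NF-κB site, those of Clic4 and Ifrd1 because they hold the Egr site on the other strand, and that of Cd209a as the gene that names the cells. All 5 are on the minus strand of GRCm38.p6 and are written 5′ to 3′ along the gene, with matches in capitals: Rel at chr11:23770970-23771219 (GAGGAAGT, then 3 overlapping NF-κB matches), Nfkbia at chr12:55492648-55492897 (NF-κB), Clic4 at chr4:135272761-135273010 (overlapping NF-κB matches, then GCGTGGGCG read on the other strand), Ifrd1 at chr12:40223190-40223439 (GCGTGGGCG read on the other strand) and Cd209a at chr8:3748985-3749234 (no match).
Rel: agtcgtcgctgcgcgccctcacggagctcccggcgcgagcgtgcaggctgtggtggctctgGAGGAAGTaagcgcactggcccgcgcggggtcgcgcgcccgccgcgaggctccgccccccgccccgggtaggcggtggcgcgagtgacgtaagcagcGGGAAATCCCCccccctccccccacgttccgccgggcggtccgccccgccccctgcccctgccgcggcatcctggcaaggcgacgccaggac
Nfkbia: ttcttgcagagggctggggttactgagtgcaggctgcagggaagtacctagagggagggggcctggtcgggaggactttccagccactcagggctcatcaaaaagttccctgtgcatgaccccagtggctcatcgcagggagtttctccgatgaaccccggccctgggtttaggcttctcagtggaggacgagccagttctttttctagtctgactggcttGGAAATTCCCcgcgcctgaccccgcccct
Clic4: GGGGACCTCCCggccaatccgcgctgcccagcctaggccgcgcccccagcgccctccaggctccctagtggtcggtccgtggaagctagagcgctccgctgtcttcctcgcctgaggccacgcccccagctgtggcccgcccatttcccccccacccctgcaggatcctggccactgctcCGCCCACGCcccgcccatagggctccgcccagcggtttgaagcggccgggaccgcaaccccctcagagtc
Ifrd1: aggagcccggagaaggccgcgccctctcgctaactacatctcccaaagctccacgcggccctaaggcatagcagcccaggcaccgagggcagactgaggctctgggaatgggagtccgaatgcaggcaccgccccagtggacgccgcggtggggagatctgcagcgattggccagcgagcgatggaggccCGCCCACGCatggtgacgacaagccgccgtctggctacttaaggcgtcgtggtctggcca
Cd209a: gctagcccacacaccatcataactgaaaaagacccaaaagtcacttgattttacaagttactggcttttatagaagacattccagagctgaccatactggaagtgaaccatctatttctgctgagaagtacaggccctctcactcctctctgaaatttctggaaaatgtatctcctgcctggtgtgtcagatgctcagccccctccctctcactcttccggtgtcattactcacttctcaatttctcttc

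Clic4 and Ifrd1 were taken from the genes already called higher on CDA-HFD in each genotype, so their direction is a description and says nothing of the Egr site. Clic4, a chloride channel protein, had 122, 92.2, 187 and 181 CPM (1.53, 1.34 to 1.75; 1.96, 1.69 to 2.30). Ifrd1, a transcriptional coregulator, had 47.0, 54.9, 241 and 164 CPM (5.13, 4.19 to 6.34; 2.995, 2.47 to 3.67). Their ratios between genotypes on CDA-HFD were 0.966 and 0.682, short of 1.5-fold.

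The genotype was compared on each diet. On ND, 341 of 4375 genes were higher in the Lyz2Cre/+.Egr2fl/fl mouse (7.79%) and 200 lower (4.57%), and with TMM factors 258 were higher and 267 lower. On CDA-HFD, where 5 times as many members were summed, 31 of 4418 genes were higher (0.702%) and 44 lower (0.996%). On both diets 5 of 3984 genes were higher (0.126%), 3 were lower (0.0753%) and 6 were past 1.5-fold in opposite directions (0.151%). The 2 comparisons share no mouse.

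The 5 genes higher in both Lyz2Cre/+.Egr2fl/fl mice were Serinc3, Oasl2, Tpp1, Tnrc6a and Strn4. Serinc3, a membrane protein that restricts retroviruses, had 179, 317, 202 and 330 CPM, with ratios of 1.78 (1.56 to 2.03) on ND and 1.63 (1.55 to 1.73) on CDA-HFD. Oasl2, an interferon-stimulated gene, had 33.1, 55.9, 41.4 and 68.9 CPM (1.69, 1.24 to 2.31; 1.67, 1.47 to 1.89). On each diet the mouse with Cre was the higher one for both genes. Tpp1, a lysosomal peptidase, had 21.6, 37.3, 21.9 and 33.5 CPM. Tnrc6a, which acts in silencing by miRNAs, had 26.9, 51.4, 22.7 and 34.4 CPM. Strn4, a scaffold protein, had 18.2, 39.3, 18.2 and 27.4 CPM. With edgeR's TMM factors Strn4 had a ratio of 1.49 on CDA-HFD and 4 of the 5 genes remained, while with members of at least 90% own hashtag counts 2 of the 5 did. With members thinned to 5000 counts 1 of the 5 remained, and with at least 4 further markers also 1. Without members high in markers of other cells, Tpp1 and Tnrc6a had ratios of 1.46 and 1.49 on CDA-HFD, short of 1.5-fold.

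The 3 genes lower in both were Lyz2, given above, Hist1h2ap and Sfxn1. Hist1h2ap, a histone gene expressed in S phase, had 417, 167, 156 and 84.1 CPM, with ratios of 0.400 (0.352 to 0.455) and 0.538 (0.494 to 0.587). A count was present in 43.0%, 24.3%, 20.1% and 22.4% of the members. Most of the level lay in members with a count of Mki67 or Top2a (1443, 587, 629 and 427 CPM), and the rest had 44.5, 18.4, 19.9 and 20.5 CPM, so that on CDA-HFD the mice were nearly equal outside them. Hist1h2ap has near-identical copies, and reads may be shared among them. Sfxn1, a mitochondrial serine carrier, had 36.5, 20.2, 32.6 and 20.7 CPM (0.552 and 0.635). Of these 3 genes, 1 remained with members thinned to 5000 counts. With at least 4 further markers, and with at least 90% own hashtag counts, 1 also remained.

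**Figure D5:**
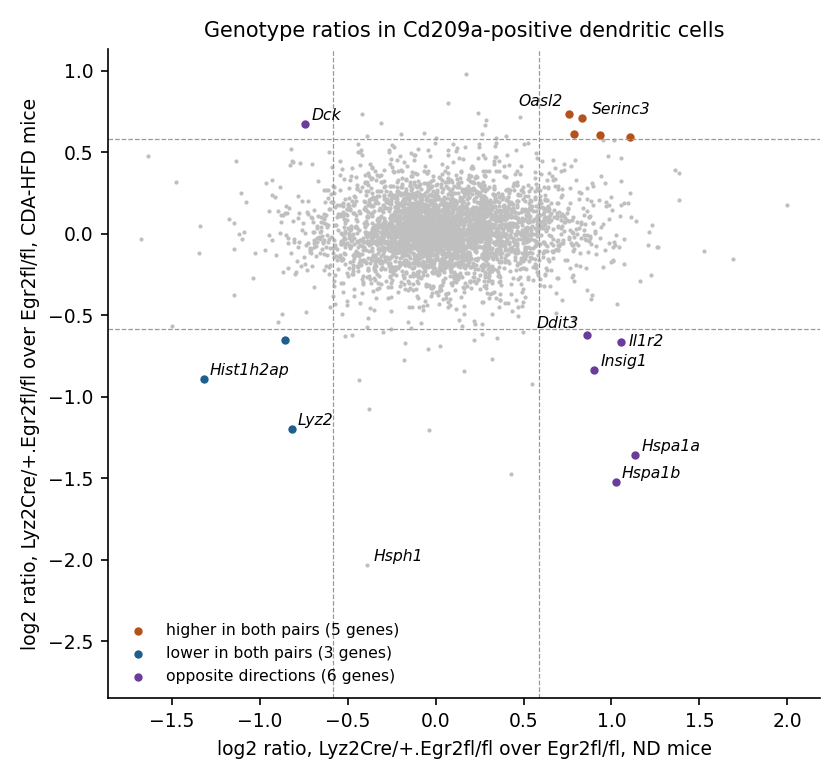
Ratio of Lyz2Cre/+.Egr2fl/fl to Egr2fl/fl in Cd209a-positive dendritic cells for each gene tested on both diets, as log2, on ND (x axis) and CDA-HFD (y axis), with dashed lines at a 1.5-fold difference. Values spread more on ND, where 107 members of each mouse were summed, and 5 genes are higher and 3 lower on both diets, Lyz2 among the latter.

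Heat shock chaperones differed between genotypes on CDA-HFD. Of 15 that passed, 6 were lower in the Lyz2Cre/+.Egr2fl/fl mouse and none higher, against 0.996% and 0.702% of all genes, and on ND 3 of 15 were higher, against 7.79% of all genes. Hspa1a, the inducible Hsp70, had 73.4, 161, 1270 and 496 CPM, a ratio of 2.20 (1.80 to 2.68) on ND and 0.391 (0.378 to 0.404) on CDA-HFD. Hspa1a and its near-identical copy Hspa1b (31.2, 63.5, 448 and 156 CPM) were thus past 1.5-fold in opposite directions on the 2 diets. Dnajb1, a cochaperone of Hsp70, had 39.4, 52.9, 188 and 67.8 CPM (0.360 on CDA-HFD). Hsp90aa1 had 494, 380, 778 and 369 CPM (0.474). The CDA-HFD-fed Egr2fl/fl mouse was the highest of the 4 for each of these genes. The list was also higher in that mouse than in its partner in Ly6Chi monocytes (6549 against 4641 CPM) and in neutrophils (2093 against 1713 CPM), as in the members (7365 against 5168 CPM), so this was not particular to the Cd209a-positive cells.

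Enzymes of cholesterol synthesis, induced by SREBP2 when sterols are low, also differed on CDA-HFD. Of 10 that passed, 5 were lower in the Lyz2Cre/+.Egr2fl/fl mouse and none higher, against 0.996% and 0.702% of all genes, with a list median of -0.59 on the log2 scale beside 0.02 over all genes. Cyp51 had 44.2, 64.5, 48.3 and 25.5 CPM, a ratio of 0.529 (0.451 to 0.619) on CDA-HFD and 1.46 (1.11 to 1.93) on ND. Fdps had 93.6, 109, 67.6 and 43.0 CPM (0.636 on CDA-HFD). For both genes the CDA-HFD-fed Lyz2Cre/+.Egr2fl/fl mouse was the lowest. Insig1, which holds SREBP2 back, had 17.3, 32.2, 37.2 and 20.8 CPM, past 1.5-fold upward on ND (1.87) and downward on CDA-HFD (0.560). On CDA-HFD the summed list had 694 CPM in members of the Egr2fl/fl and 517 CPM in those of the Lyz2Cre/+.Egr2fl/fl mouse. It had 571 and 398 CPM in Ly6Chi monocytes and 737 and 509 CPM in Xcr1-positive cells. The difference was thus not particular to the Cd209a-positive cells. Kupffer cells had 424 and 364 CPM, neutrophils 237 and 247 CPM and Ccr7-positive cells 1363 and 1537 CPM.

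Other lists were described on each diet, and whether a difference between genotypes itself differed between the diets was not tested. On ND, 9 of 24 interferon-stimulated genes that passed were higher in the Lyz2Cre/+.Egr2fl/fl mouse and 2 lower, against 7.79% and 4.57% of all genes, with a median of 0.41. On CDA-HFD 1 of 21 was higher and none lower, against 0.702% and 0.996% of all genes, with a median of 0.33, so that the list median was above 0 on both diets. Isg15, a ubiquitin-like modifier, had 37.4, 96.2, 42.7 and 55.9 CPM. Among glucocorticoid-induced genes on CDA-HFD, Fkbp5 had 18.8 CPM in the Egr2fl/fl and 45.3 CPM in the Lyz2Cre/+.Egr2fl/fl mouse (2.41, 2.02 to 2.88), and Ddit4 88.0 and 133 CPM (1.51). These were 2 of 10 that passed, against 0.702% of all genes. Hilpda, a lipid droplet protein induced by hypoxia and fatty acids, had 64.9 and 25.03 CPM on CDA-HFD (0.385, 0.331 to 0.448). MHC class II presentation had 18 genes that passed on CDA-HFD and none past 1.5-fold. On ND 2 of 18 were higher, a count near the 7.79% of all genes, the proteases Ctsb (352 against 640 CPM) and Lgmn (109 against 168 CPM), both in the mouse in which macrophage markers were highest, and whether those markers took part was not tested.

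The cells were not uniform, and 2 splits were followed within each mouse. Mgl2, which encodes the lectin CD301b and is a marker of a cDC2 subset, is 1 of the genes that chose the members. It had a count in 42.1% (32.6 to 52.0; 45 of 107), 50.5% (54 of 107), 37.3% (206 of 552) and 32.8% (180 of 549) of the members. Members with and without Mgl2 were compared in 4362 genes, of which 6 were higher (0.138%) and 2 lower (0.0459%) by 1.5-fold in every mouse.

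The higher genes were Hepacam2, Mt1, Clec4b1, Lyz1, Myof and S100a1. Clec4b1, a C-type lectin of the DCAR family, had 408, 463, 243 and 340 CPM in members with Mgl2 and 126, 245, 139 and 197 CPM in members without it. The lower genes were Cd7 and Plac8. Cd7, a surface protein of lymphoid cells and of some progenitors, had 21.2, 0.992, 15.3 and 12.9 CPM with Mgl2 and 140, 149, 55.3 and 38.2 CPM without it. Plac8, high in monocytes and in precursors of dendritic cells, had 812, 835, 452 and 451 CPM with Mgl2 and 2021, 1533, 896 and 1167 CPM without it. In each of the 4 mice the members without Mgl2 held more Cd7 and Plac8. Members with Mgl2 needed counts of only 2 of the other 5 further markers and members without it needed 3, so the 2 sets passed different filters and the values are a description. Low values of Plac8 had been set to 0 in the deposited counts.

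The other split was by a count of Mki67 or Top2a, genes of dividing cells. Such cells were 19.6% (12.6 to 28.4; 21 of 107), 17.8% (19 of 107), 17.4% (96 of 552) and 11.7% (64 of 549) of the members. Of 4688 genes, 134 were higher in them by 1.5-fold in every mouse (2.86%) and 1, Gramd4, was lower (0.0213%). Among the 134 were Birc5, Ube2c, Pclaf, Cdk1 and Stmn1, which act in chromosome segregation, DNA replication and mitosis. These cells also had more counts, with medians of 26910, 26913, 20414 and 22007 against 16857, 15397.5, 15584 and 15709 in the rest, and a cell with more counts is more likely to show either gene.

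Mki67 had a count in 13.1%, 10.4%, 9.12% and 4.57% of the thinned members, and in 15.9%, 12.1%, 14.1% and 9.11% without thinning. Neutrophils were taken as cells that should lack it, and their unthinned share was at most 1.75%, at far lower depth. Among neutrophils thinned to the same depth, none of 12, 26 and 96 had a count in the first 3 mice (exact intervals up to 26.5%, 13.2% and 3.77%), and 5% of 100 had one in the CDA-HFD-fed Lyz2Cre/+.Egr2fl/fl mouse (1.64 to 11.3). In that mouse the thinned share of members did not exceed that of neutrophils, so it is not read from this share alone that members carried Mki67 above background there. Ly6Chi monocytes had thinned shares of 1.89%, 0%, 0.903% and 1.58%. Within that mouse, members with a count of Mki67 or Top2a had 236 CPM of Birc5 and 613 CPM of Stmn1, against 2.98 and 22.7 CPM in the rest. Of the 30 listed cell cycle genes, 12 passed on ND and 6 of these were lower in the Lyz2Cre/+.Egr2fl/fl mouse, against 4.57% of all genes. On CDA-HFD 8 passed and 1 was lower, against 0.996%. Stmn1, which destabilises microtubules, had a ratio of 0.573 on ND and 1.38 when at least 4 further markers were required. Most members lay low in all 4 mice, with medians of 687, 636, 747 and 724 CPM for the summed list, and the mice differed in their upper cells, with 90th percentiles of 10351, 3934, 2845 and 2058 CPM.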

How the data were processed

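The single-cell library of 4 hashtagged mice was analysed. The authors captured cells on the BD Rhapsody system, amplified them by TAS-Seq, mapped reads to the GRCm38 release 101 transcriptome and assigned barcodes to hashtags, and Seurat 4.1.1 and R 4.2.1 are named in the submitters' processing notes. The deposited matrix holds raw counts without normalization for 25909 genes and 16786 barcodes. Of these, 1392 (8.29%) named doublets by the authors were left out, and doublets within a mouse were not removed. For 25 genes with a value in 50 cells or more, among them Cd74, H2-Aa, H2-Ab1, Lyz2, Ccl5, Apoe, Plac8 and Clec4f, no value from 1 to 4 occurs, so low values of these genes had been set to 0. Whether reads or molecules were counted is not given in the sources used here.

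Counts were summed over the members of each mouse and divided by their total (CPM). Shares carry exact Clopper-Pearson intervals, differences Newcombe's, and ratios intervals from an exact binomial split. With 1 mouse per group no test was made, and p-values were not computed. The members and the 42 gene lists were chosen with earlier results of these data known. Genes named are the rule and label markers, the 10 with the largest smaller fold past 1.5-fold in both pairs in each direction, and, from each list, genes past it in both pairs or of high level. Ccl17, Tpp1 to Strn4, Cd40, Icosl, Cd86, Isg15, Hilpda, Clic4, Ifrd1 and the genes of the splits within members were described after their values were seen. The classes compared were chosen by marker counts, and 96 cells that met 2 or more rules were left out. The values of a few list genes are not reported here. Alternatives were other scalings, filters, folds, marker limits and thinning to 5000 counts, and those on Tnfsf9, Clec4f, Flt3 and members high in markers of other cells were added after the data were seen. Python 3.11.15, numpy 2.4.6, scipy 1.17.1, pandas 2.3.3, R 4.3.3, edgeR 4.0.16 (TMM factors only) and DESeq2 1.42.0 (size factors only) were used, and the calls were checked on simulated data.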

Additional observations from a re-analysis of the deposited data

Results flagged for a closer look

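Effects of opposite direction in 2 pairs of mice drew attention in these results, and none of the differences was tested, because each group is 1 mouse. The share of Cd209a-positive dendritic cells differed by 0.519 percentage points between Lyz2Cre/+.Egr2fl/fl and Egr2fl/fl mice on ND and by -0.505 points on CDA-HFD, and both intervals include 0. With at least 2 further markers both differences were negative (-0.442 and -1.21 points), so the opposite direction depended on that limit.

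For the genotype, 6 genes were past 1.5-fold in opposite directions on the 2 diets. The ratio of Lyz2Cre/+.Egr2fl/fl to Egr2fl/fl on ND and then on CDA-HFD was 2.20 and 0.391 for Hspa1a, 2.03 and 0.348 for Hspa1b, a near-identical copy with which reads may be shared, and 1.87 and 0.560 for Insig1. Ddit3, a transcription factor of the endoplasmic reticulum stress response, had 1.81 and 0.651, Il1r2, the decoy receptor of interleukin 1, 2.07 and 0.632, and Dck, which phosphorylates deoxynucleosides, 0.598 and 1.60.

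For the diet, 11 genes were past 1.5-fold in opposite directions in the 2 genotypes. The ratio of CDA-HFD to ND in Egr2fl/fl and then in Lyz2Cre/+.Egr2fl/fl mice was 2.15 and 0.646 for Insig1, 1.68 and 0.603 for Ddit3, 1.80 and 0.656 for Rhob, 1.65 and 0.602 for Camk2g and 2.12 and 0.607 for Ppcdc. Pkn2 had 1.52 and 0.623, Sptan1 1.52 and 0.638 and Srpr 1.60 and 0.664. In the other direction, Gramd3 had 0.475 and 1.65, Mcm5, a subunit of the replicative helicase, 0.616 and 1.58 and Cops8 0.635 and 1.54. With a fold of 2 none of the 11 was called this way, and of the 6 genotype genes 2 were. With members thinned to 5000 counts 0 of the 11 and 1 of the 6 were still called this way. With at least 4 further markers these were 5 and 2, and with TMM factors 6 and 6.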

How the results depend on the processing

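No paired analysis was possible because each group is 1 mouse and the labels give no replicate numbers, and no mouse could be left out for the same reason. Of 2797 alternative values, 254 of the main results and 2144 of single genes moved little, while 88 and 302 moved further. Another 2 and 7 turned direction, where a share difference was counted only if its main interval left out 0. Of 223 values of named genes, 86 moved with at least 4 further markers. With members thinned 79 moved, and with at least 90% own hashtag counts 55 did. Scaling by TMM or DESeq2 factors, a mitochondrial limit of 10%, leaving out members that met another rule and leaving out members high in markers of other cells moved no main count of genes over 1.5 times. The genes behind a count could still change. Without members high in markers of other cells, Tpp1 and Tnrc6a had genotype ratios of 1.46 and 1.49 on CDA-HFD and lost their calls. No mitochondrial limit and leaving out cells of very high counts were run for the shares alone, which stayed within their intervals. The cause of the moves below was not tested.

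Shares in the order used above were 8.996%, 8.55%, 11.9% and 10.7% with at least 2 further markers, where the genotype difference on ND turned to -0.442 points and that on CDA-HFD was -1.21 points, and 3.37%, 3.84%, 6.17% and 5.82% with at least 4. They were 4.27%, 4.96%, 7.56% and 6.65% with every cell thinned to 5000 counts. In the CDA-HFD-fed mice they were 7.54% and 6.97% with a Cd209a count of at least 5, 10.5% and 9.67% with at least 90% of hashtag counts from the own hashtag, 8.496% and 8.07% without Tnfsf9 in the rule, and 8.16% and 8.10% with at least 2 of Clec10a, H2-Oa and Flt3, where the diet difference in Egr2fl/fl mice was 1.66 points. Among cells without Clec4f the ND shares were 11.2% and 14.3%, the genotype difference on ND was 3.15 points and the diet differences turned to -1.78 and -5.40 points.

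Counts of genes, higher and then lower, were as follows. With members thinned to 5000 counts they were 62 and 41 for the genotype on ND, 13 and 13 on CDA-HFD, 215 and 193 for the diet in Egr2fl/fl, 167 and 178 in Lyz2Cre/+.Egr2fl/fl mice, 1 and 1 for the genotype in both pairs (1 opposite) and 94 and 36 for the diet in both pairs (1 opposite). With a fold of 2 the same counts were 53 and 34, 1 and 8, 155 and 106, 110 and 92, 0 and 0 (2 opposite), and 77 and 19 (0 opposite). With no filter beyond 20 counts they were 1693 and 1220, 1028 and 1074, 1926 and 2091, 1710 and 2312, 131 and 117 (191 opposite), and 551 and 738 (573 opposite). With at least 500 counts the genotype on ND had 25 and 15, the diet 230 and 123 in Egr2fl/fl and 173 and 114 in Lyz2Cre/+.Egr2fl/fl mice, the genotype in both pairs 1 higher (0 opposite), and the diet in both pairs 32 lower (3 opposite). With at least 4 further markers the genotype on CDA-HFD had 64 and 68, the diet in Lyz2Cre/+.Egr2fl/fl mice 446 higher, the genotype in both pairs 3 higher (3 opposite) and the diet 32 opposite. With at least 90% of hashtag counts from the own hashtag 1 gene was lower for the genotype in both pairs and 19 were opposite for the diet. With at least 2 of Clec10a, H2-Oa and Flt3, 3 genes were higher for the genotype in both pairs.

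Egr2 had diet ratios of 1.21 and 1.21 with at least 4 further markers, and a genotype ratio of 0.656 on CDA-HFD with at least 2 of Clec10a, H2-Oa and Flt3. Directions turned for Sc5d (1.29 in Egr2fl/fl mice by diet, members thinned), for Cd7 (1.08 and 1.64 by diet), Ctsd (0.875 by diet in Egr2fl/fl), Adgre1 (0.828 by genotype on ND) and Stmn1 (1.38 by genotype on ND) with at least 4 further markers, and for S100a8 (0.978 by diet in Lyz2Cre/+.Egr2fl/fl mice) with at least 2 of Clec10a, H2-Oa and Flt3.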
